A study of Pistacia vera with 121 samples.

Results

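The 64 genes described here reached their highest level in the hull and in the shell of Kerman pistachio fruit in the middle of the season, at similar heights in both tissues and far above their level in the kernel. They were chosen on the CPM scale, which sets a gene's reads against the total of its library over genes whose identifier begins with PvKer. Mean CPM was taken per tissue and sampling point. A gene was kept if its hull maximum and its shell maximum each fell at 1223, 1357, 1657, 1759 or 1881 growing degree days (°C), if both were at least 20 CPM and within 2-fold of each other, and if both were over 10 times the kernel maximum. These limits were met by 64 of 37063 PvKer genes, in a table of 38315 identifiers. Because the group means of all 3 tissues chose the genes, the points and heights of the maxima below are a description and were not tested. The limits were set with earlier results of these data known.

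The series followed fruit of the cultivar Kerman over 15 weeks by RNA sequencing, in kernel (the seed), shell (the endocarp) and hull (called pericarp in the sample labels and exocarp in the protocol). It holds 39 kernel libraries from 12 sampling points between 1223 and 2564, 35 shell libraries from 11 points between 865 and 2139, and 47 hull libraries from 15 points between 865 and 2564. Growing degree days are a running sum of daily heat that tracks development better than the calendar. The labels do not say whether the libraries of a group came from separate trees or fruit, so p-values measure only the spread between these libraries, which may be technical.

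As background, the pistachio fruit is a drupe whose parts develop on different schedules. The hull and shell reach their full size early, the shell then hardens by laying down lignin, and the seed grows and fills with oil later. At maturity the hull softens and separates from the shell, which often splits along its seam. The identifiers could not be given a gene name, since 0 of 38315 matched the RefSeq gene table used here, and so no role, product or sequence is given for any gene and no tissue marker could be checked by name.

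Libraries were checked against their labels on 16668 other genes. Each of the 107 libraries that the selection kept correlated best with a group of its own labelled tissue, and 94 with their own labelled group. Among kept shell libraries, S29 and S31, both labelled 1759, had the highest correlations with a kernel group, at 0.756 and 0.72. The part of this in the shell levels at 1759 was not tested. The selection left out 14 libraries. Of these, 3 labelled hull were nearest to shell groups, 1 labelled shell was nearest to a hull group and 2 labelled kernel were nearest to shell groups. The 3 libraries labelled kernel 2564 were nearest to the kernel group labelled 1223, with r between 0.975 and 0.979. The kept libraries held 850623 to 12312036 counts on PvKer genes in kernel (n = 29), 7654046 to 16586003 in shell (n = 34) and 7680501 to 18115772 in hull (n = 44). With all 121 libraries under their labels, 16 genes met the limits, 8 of them among the 64.

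The genes fell into 4 classes by the timing of their maxima. In 20 genes both maxima fell at 1223 or 1357, and in 25 both fell at 1657, 1759 or 1881. In 13 genes the hull maximum belonged to the earlier pair of points and the shell maximum to the later points, and in 6 genes the order was the other way. In shell, 12 genes had their maximum at 1223, 14 at 1357, 12 at 1657, 6 at 1759 and 20 at 1881. In hull, the counts at these points were 13, 20, 3, 9 and 19. Hull and shell had their maximum at the same point in 32 of 64 genes (50%), most often at 1881 (14 genes) or 1357 (11 genes). Among the 9595 genes with both maxima of at least 20 CPM, wherever they fell, this was so in 30.7%. The selection holds both maxima to the same few points, which favours a shared point. The share among other genes with both maxima at those points was not computed, so nothing about the list is read from this difference.

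**Figure D1:**
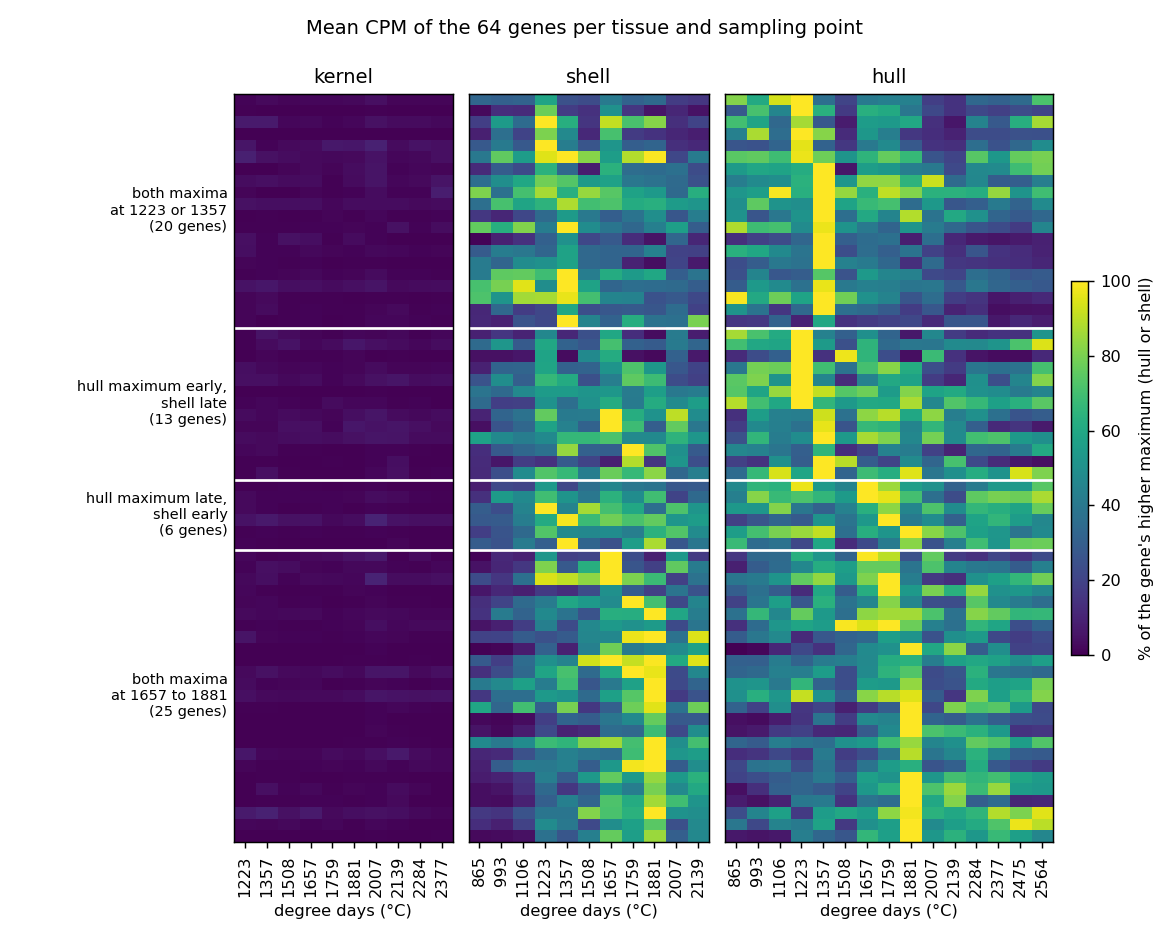
Mean CPM of each of the 64 genes (rows) at each sampling point (columns, growing degree days in °C) in kernel, shell and hull, as a percent of the gene's higher maximum of hull and shell. White lines part the 4 classes of 20, 13, 6 and 25 genes from top to bottom, and kernel is dark throughout. Within each class the brightest hull cells step to later points down the page.

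The shell maxima spanned 20.04 to 6691 CPM with a median of 114 CPM, and the hull maxima 23.5 to 5773 CPM with a median of 152 CPM. The kernel maximum was between 0.132 and 175 CPM, with a median of 4.80 CPM. The smaller of the hull and shell maxima was 10.01 to 229 times the kernel maximum, with a median of 20.96. Close to the limits, the lowest maximum kept was 20.04 CPM and the highest left out on that limit alone was 18.19 CPM. The corresponding ratios between the hull and shell maxima were 1.998 inside and 2.023 outside, and the ratios to the kernel maximum were 10.01 inside and 9.79 outside. The point at 1508 is not among the 5 points of the selection. Of the 570 genes that met the limits on level, 95 had their hull or shell maximum at 1508, 52 of them in both tissues.

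The lowest group mean was under 25% of the maximum in 48 genes in shell (75%) and in 46 genes in hull (71.9%), where 29.02% and 35.5% of the 9595 genes were. It was under 10% in 20 genes in shell (31.2%) and 18 in hull (28.1%), where 8.73% and 11.8% of the 9595 genes were. The profiles were chosen by their maxima, so nothing is read from these shares. The median coefficient of variation within a group was 22.97% in shell and 17.8% in hull for the 64 genes, against 14.04% in shell and 12.3% in hull for the 9595 genes, which were not matched to the list on level. CPM is not corrected for gene length, so a gene's share of the counts below also depends on the length of its transcript. The gene PvKer.03.g072130 alone took 32.3% of the summed CPM of the list in shell and 36.6% in hull, and PvKer.12.g295670 followed with 6.84% and 5.97%.

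The summed CPM of the 64 genes described the season in each tissue. In shell the sum averaged 4736 ± 1123 at 865, 7943 ± 441 at 993, 7983 ± 1167 at 1106, 11119 ± 1238 at 1223 and 10967 ± 551 at 1357 (SD, n = 3 each). It was 7921 ± 561 at 1508, 12294 ± 886 at 1657, 12409 ± 2678 at 1759, 15694 ± 1439 at 1881 and 9334 ± 606 at 2007 (n = 3 each), and 8472 ± 928 at 2139 (n = 4). In hull the sum was already 9028 ± 1808 at 865, 12185 ± 1619 at 993 and 10786 ± 387 at 1106 (n = 3 each). It was highest between 1223 and 1881, except at 1508, with group means of 13761 to 15262 CPM. At 1508 it was 8354 ± 788 and at 2139 it was 7516 ± 237 (n = 3 each). It then stood at 12738 ± 872 at 2284, 11392 ± 3892 at 2377, 10248 ± 717 at 2475 and 11927 ± 137 at 2564 (n = 3 each). The kept kernel libraries ranged from 109 to 664 CPM, with a median of 408 CPM (n = 29). No kept kernel library reached the lowest kept shell library, at 3859 CPM, or the lowest kept hull library, at 7248 CPM. Bulk tissue cannot tell fewer cells of a type from less RNA per cell.

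**Figure D2:**
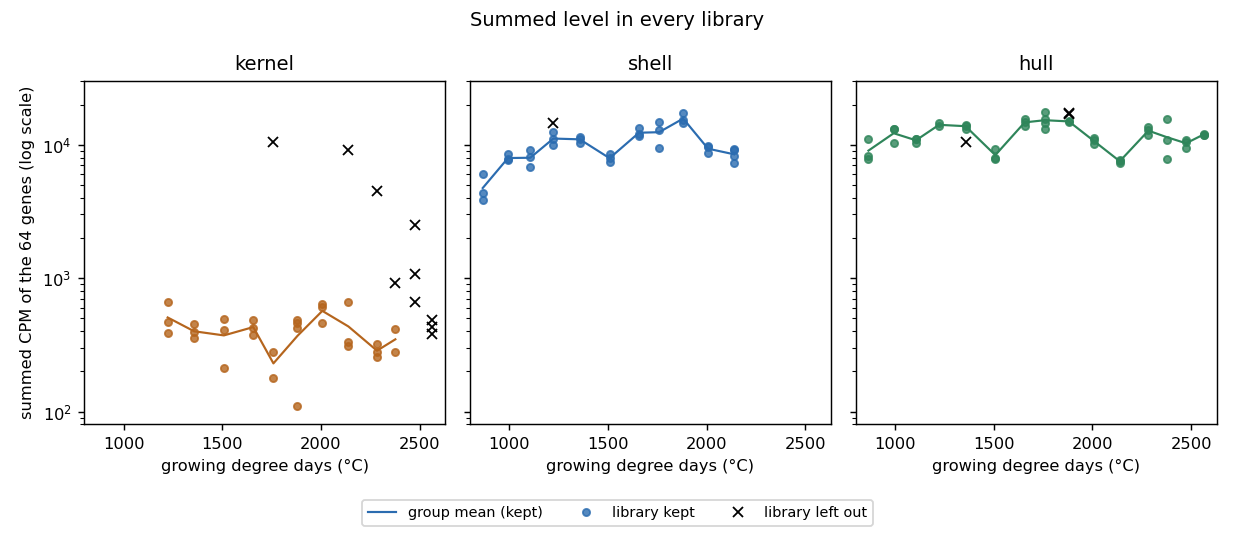
Summed CPM of the 64 genes (log axis) in each library against growing degree days (°C) for kernel, shell and hull. Points are the libraries kept, lines join group means and crosses mark the 14 libraries left out; kept kernel libraries lie at 109 to 664 CPM, and crosses in the kernel panel reach 10435 CPM.

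In both fruit tissues the summed CPM of the list had a low point at 1508, between higher levels at 1357 and 1657. The mean at 1508 lay below those at 1357 and 1657 in 29 genes in shell (45.3%) and in 50 genes in hull (78.1%). Among the 9595 genes the shares were 35.2% in shell and 48.2% in hull. The level at 1508 was, in the median gene of the list, 0.748 of the mean of 1357 and 1657 in shell and 0.540 in hull. For the 9595 genes these ratios were 0.963 and 0.884. The selection takes part in this pattern, since it leaves out genes with a maximum at 1508. The hull sum had a second low point at 2139, where the selection also favours levels under the maximum. After it, 41 of the 64 genes had a higher mean at 2284 (64.1%, against 48.1% of the 9595 genes). Without PvKer.03.g072130, the summed hull CPM averaged 5881 at 2007, 5003 at 2139 and 7251 at 2284. The median ratio of 2284 to 2139 was 1.31 for the list and 0.981 for the 9595 genes.

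The seasonal profiles of shell and hull were compared gene by gene. Over the 11 sampling points common to shell and hull, the correlation of log2(CPM + 1) between the 2 profiles of a gene had a median r of 0.721 in the list, from 0.003 to 0.967. No gene was below 0 and 54 genes (84.4%) were above 0.5. Over the 9595 genes the median was 0.701, with 5.02% below 0 and 74.6% above 0.5. By class, the median was 0.820 in the 25 genes with both maxima late, 0.721 in the 20 with both early, 0.609 in the 13 with an early hull and late shell maximum and 0.554 in the 6 with the opposite order. The classes were cut from the same profiles, so these values are a description.

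Among the 20 genes with both maxima at 1223 or 1357, PvKer.05.g133790 had the highest hull maximum. In shell it had 395, 296 and 384 CPM at 865, 861, 933 and 796 CPM at 1357, and 543, 659, 477 and 378 CPM at 2139. In hull it had 614, 393 and 463 CPM at 865, 899, 985 and 1067 CPM at 1357, and 215, 283 and 288 CPM at 2139. In both tissues every library at 1357 was above every library at 865 and 2139. Kernel means stayed between 18.2 and 43.2 CPM.

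Among the 25 genes with both maxima at 1657 to 1881, the highest hull maximum belonged to PvKer.03.g072130. In shell it had 793, 582 and 1586 CPM at 865, 1740, 1504 and 1877 CPM at 1508, and 7681, 5894 and 6498 CPM at 1881. In hull it had 3583, 2174 and 1764 CPM at 865, 3001, 1946 and 2349 CPM at 1508, and 5868 and 5644 CPM at 1881. Its hull level at 2377 was 4736, 7556 and 2945 CPM, the widest spread between replicates of that gene. All 3 shell libraries at 1881 were above both hull libraries of that point, and all 3 shell libraries at 865 were below the hull libraries at 865.

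The mixed classes are shown by PvKer.01.g031770 and PvKer.07.g185420, again the genes with the highest hull maximum of their class. The first had its shell maximum at 1759, with 235, 442 and 409 CPM, and its hull maximum at 1223, with 515 and 491 CPM. In hull it also had 179, 250, 555 and 673 CPM at 1759, a spread that overlaps the hull libraries at 1223, so the order of these 2 hull points is not beyond the replicates. The second had its shell maximum at 1223, with 357, 257 and 350 CPM, and its hull maximum at 1657, with 521, 626 and 649 CPM. Its hull libraries at 1223, at 590 and 572 CPM, lay within the range of those at 1657. In both genes the earlier and later hull peaks overlapped between libraries. Their shell levels overlapped as well, since the first had 330, 230 and 320 CPM in shell at 1223. The second had 303, 244 and 271 CPM in shell at 1657. The class of neither gene is therefore beyond its replicates.

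**Figure D3:**
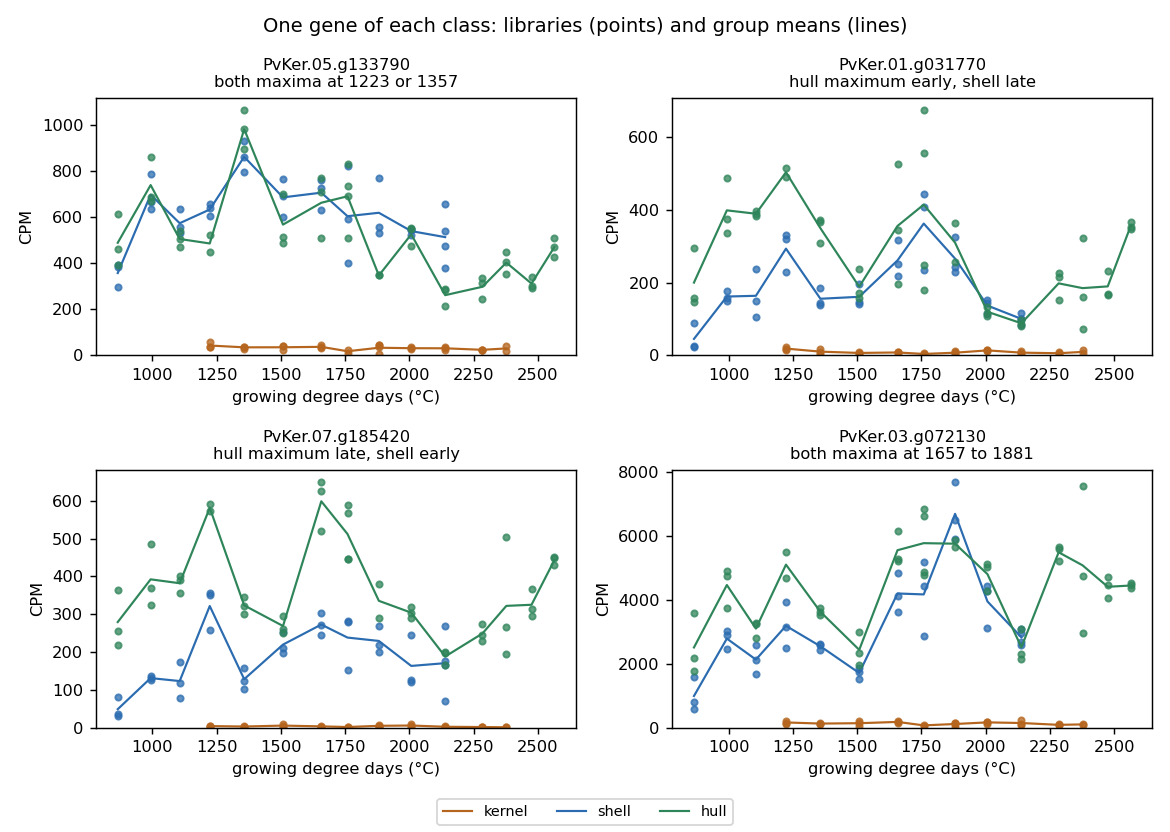
CPM of the gene with the highest hull maximum in each class against growing degree days (°C), with points for libraries and lines for group means in kernel, shell and hull. The low means at 1508 and 2139 are visible in hull for PvKer.07.g185420 and PvKer.03.g072130, and kernel runs along the bottom of each panel.

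Each of the following comparisons was fitted across all genes with edgeR's quasi-likelihood test on the deposited counts. A gene was called at a Benjamini-Hochberg adjusted p under 0.05 with a log2 fold change of 1 or more in size. The selection took each maximum over all points of the kept libraries, so the group means at the points compared below lie under the maxima by choice. A rise before the window and a fall after it are favoured by that choice. The shares of all genes tested are printed beside the counts for these steps, and nothing about the list is read from them. For the counts below of called genes whose libraries did not overlap, no share over all genes was computed. Those counts describe the called genes only, and nothing about the list is read from them either.

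Before the window, shell at 1106 was compared with shell at 865. Of the 64 genes, 21 (32.8%) were called higher at 1106, where 4.23% of all genes tested were, and 0 were called lower, where 2.98% were. At an unadjusted p under 0.05, 1 gene was lower, and DESeq2 called 22 higher and 0 lower. The median log2 fold change was 0.74 for the list and -0.04 for all genes tested. The class with both late maxima, 25 of the 64 genes, held 12 of the 21 calls. The classes were cut from the same profiles, so this split is a description. In shell PvKer.01.g033350 had 83.3, 64.7 and 52.7 CPM at 1106, against 4.17, 1.27 and 7.07 CPM at 865. Its log2 fold change was 4.06 ± 0.46 (SE, adjusted p = 1.4e-06, edgeR's quasi-likelihood test). Every shell library at 1106 was above every one at 865 in 17 of the 21 genes called. Without replicate 1 of each group 9 genes were called higher and without replicate 2 there were 11, with 1 library fewer at each point.

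In hull the same step was compared. Of the 64 genes, 12 (18.8%) were called higher at 1106 than at 865 (5.36% of all genes tested) and 1 lower (7.58% of all genes tested). The median log2 fold change was 0.43, against -0.02 for all genes. PvKer.04.g106890 had 26.04, 29.04 and 32.59 CPM in hull at 1106, against 0.397, 0.391 and 1.74 CPM at 865, a log2 fold change of 5.06 ± 0.49 (SE, adjusted p = 3.5e-09, edgeR's quasi-likelihood test). In shell the same gene had 31.2, 20.9 and 6.39 CPM at 1106, against 0.080, 2.12 and 1.77 CPM at 865. The 1 gene called lower was PvKer.03.g066400, with 12.8, 18.4 and 14.4 CPM at 1106, against 73.2, 46.2 and 29.4 CPM at 865 (log2 fold change -1.77 ± 0.45, adjusted p = 0.0029, edgeR's quasi-likelihood test). Its call was lost without replicate 1 of each group, at a log2 fold change of -1.17. Of the 12 hull genes called higher, 8 (66.7%) were among the 21 called higher in shell (38.1% of these). The matching share over all genes tested was not computed, so nothing about the list is read from this overlap.

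After the window, hull at 2139 was compared with hull at 2007. At 2139, 14 genes (21.9%) were called lower in hull than at 2007 (3.57% of all genes tested) and 1 higher (6.49%), with a median log2 fold change of -0.51 against 0.04 for all genes. The class with both maxima at 1223 or 1357, 20 of the 64 genes, held 8 of the 14. That split is again a description, since the same profiles set the classes. In hull PvKer.01.g010920 had 7.64, 9.88 and 6.66 CPM at 2139, against 41.2, 35.03 and 38.8 CPM at 2007. Its log2 fold change was -2.45 ± 0.50 (SE, adjusted p = 0.0006, edgeR's quasi-likelihood test). The gene called higher was PvKer.02.g041780, with 289, 202 and 168 CPM at 2139, against 53.0, 68.3 and 52.8 CPM at 2007 (log2 fold change 1.73 ± 0.45, adjusted p = 0.0051, edgeR's quasi-likelihood test). Libraries of the 2 points did not overlap for any of the 15 genes called. Without replicate 1 of each group 6 genes were called lower, and without replicate 2 there were 9; the call of PvKer.02.g041780 was lost without replicate 1, at a log2 fold change of 1.37.

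In shell the same step was compared. At 2139, 9 genes (14.1%) were called lower in shell than at 2007 (4.19% of all genes tested) and 2 higher (6.24%), with a median log2 fold change of -0.15 against 0.07. PvKer.01.g008840 had 10.5, 13.1, 18.1 and 14.2 CPM in shell at 2139, against 75.2, 67.2 and 71.1 CPM at 2007 (log2 fold change -2.47 ± 0.63, adjusted p = 0.0069, edgeR's quasi-likelihood test). PvKer.08.g195630 had 404, 519, 319 and 333 CPM at 2139, against 153, 160 and 158 CPM at 2007 (log2 fold change 1.202 ± 0.29, adjusted p = 0.0044, edgeR's quasi-likelihood test). Both calls were lost without replicate 2 of each group, at log2 fold changes of -2.53 and 1.01. Without replicate 1 there were 3 genes called lower and without replicate 2 there were 4, while without replicate 4 there were 8 called higher. Of the 9 genes called lower in shell, 6 were among the 14 called lower in hull. This overlap was not computed over all genes tested, and nothing about the list is read from it.

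The hull was sampled on after the last shell point, and both points of the next comparison lie after the window. At 2564, 16 genes (25%) were called higher in hull than at 2139 (12.3% of all genes tested) and 7 (10.9%) lower (14.5%), with a median log2 fold change of 0.36 against -0.08 for all genes. In hull PvKer.11.g277240 had 87.1, 88.5 and 110 CPM at 2564, against 6.47, 6.92 and 6.56 CPM at 2139. Its log2 fold change was 3.98 ± 0.54 (SE, adjusted p = 3.0e-07, edgeR's quasi-likelihood test). In the other direction, PvKer.06.g155470 had 4.58, 5.11 and 5.18 CPM at 2564, against 70.8, 102 and 87.9 CPM at 2139 (log2 fold change -3.98 ± 0.43, adjusted p = 6.9e-09, edgeR's quasi-likelihood test). Libraries of the 2 points did not overlap for any of the 23 genes called.

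**Figure D4:**
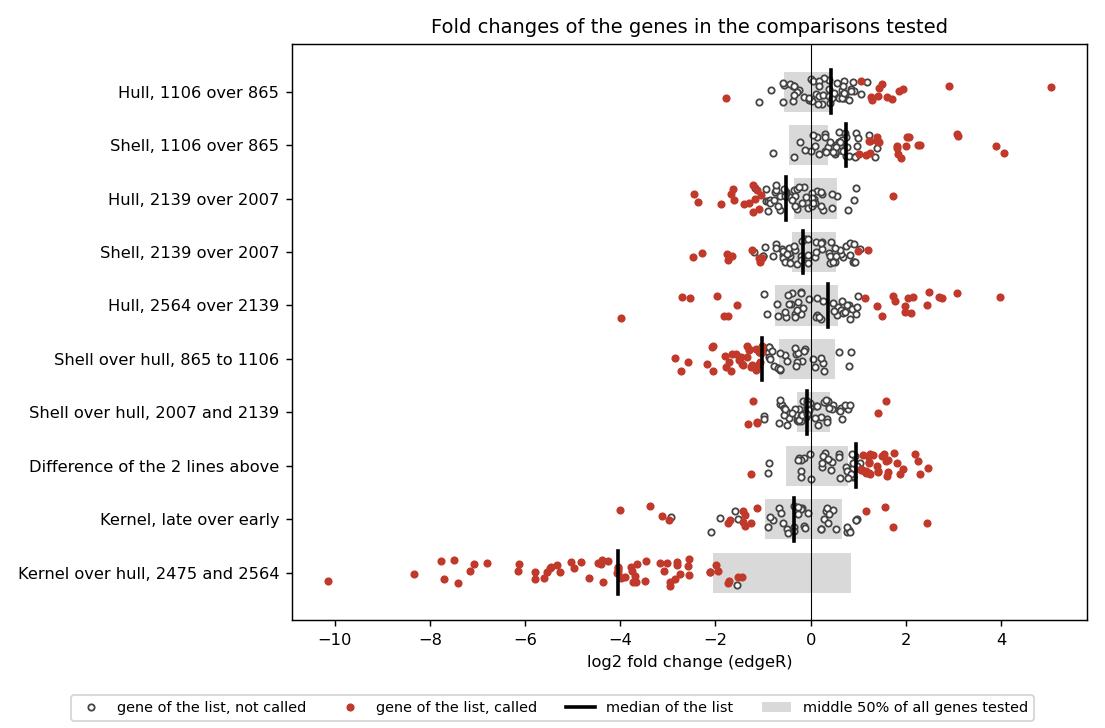
Log2 fold change of each gene of the list (points, red where called) in the comparisons tested, the median of the list (black bar) and the middle 50% of all genes tested (grey). The medians are 0.74 for shell at 1106 over 865, -1.02 for shell over hull at 865 to 1106 and -4.05 for kernel over hull at 2475 and 2564; the point farthest left belongs to a gene with no count in kernel, and its fitted value is not a bound.

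Shell and hull were set against each other outside the window. There each tissue is held under its own maximum, and these maxima lie within 2-fold of each other. The selection thus bounds both levels from above but sets no difference between them. Its part in these results was not tested. Over 865, 993 and 1106, 33 of the 64 genes (51.6%) were called lower in shell than in hull, where 15.6% of all genes tested were. By edgeR 0 were called higher (13.3% of all genes tested), 4 were higher at an unadjusted p under 0.05, and DESeq2 called 0 higher. The median log2 fold change was -1.02, against -0.07 for all genes tested. All 4 classes took part, with calls for 14 of the 25 genes with both maxima late, 6 of the 20 with both early, 9 of the 13 with an early hull and late shell maximum and 4 of the 6 with the opposite order. The largest difference was in PvKer.01.g008840, which spanned 2.69 to 40.5 CPM in 9 shell libraries with a median of 22.1, against 67.9 to 230 CPM in 9 hull libraries with a median of 127. Its log2 fold change was -2.84 ± 0.36 (SE, adjusted p = 4.8e-10, edgeR's quasi-likelihood test). In PvKer.15.g358660 shell libraries held 1.06 to 53.7 CPM with a median of 29.6, against 56.7 to 278 CPM with a median of 143 in hull libraries (log2 fold change -2.72 ± 0.24, adjusted p = 7.4e-15, edgeR's quasi-likelihood test). Over all 18 libraries the tissues did not overlap in 6 of the 33 genes called.

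Over 2007 and 2139 the tissues were closer. Of the 64 genes, 4 were called lower in shell than in hull (6.25%, against 4.21% of all genes tested) and 2 higher (3.12%, against 6.28%), with a median log2 fold change of -0.08 against 0.03 for all genes. PvKer.15.g358660 was still lower, at 9.0 to 35.6 CPM with a median of 19.9 in 7 shell libraries, against 39.8 to 87.4 CPM with a median of 49.4 in 6 hull libraries (log2 fold change -1.32 ± 0.28, adjusted p = 0.00021, edgeR's quasi-likelihood test). PvKer.01.g033410 was higher, at 50.4 to 211 CPM with a median of 78.8 in shell, against 10.8 to 46.2 CPM with a median of 30.4 in hull (log2 fold change 1.58 ± 0.25, adjusted p = 1.3e-06, edgeR's quasi-likelihood test).

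The change of the difference itself was tested as an interaction. The log2 difference of shell from hull was called higher at 2007 and 2139 than at 865 to 1106 in 30 of 64 genes, or 46.9% (12.4% of all genes tested) and lower in 1 (10.6%). The median change was 0.95, against 0.14 for all genes. Of the 30 genes, 22 (73.3%) were among the 33 called lower in shell early, and both tests use the early libraries. That overlap was not computed over all genes tested, so nothing about the list is read from it. On the adjusted p alone 47 genes (73.4%) passed in either direction, where 42.3% of all genes tested did. For PvKer.07.g185420 shell held 35.9, 29.2 and 80.3 CPM at 865, against 364, 218 and 255 CPM in hull. At 2007 shell held 126, 119 and 244 CPM, against 319, 303 and 290 CPM in hull, with every shell library lower. At 2139 shell held 167, 270, 175 and 69.6 CPM at 2139, against 166, 199 and 198 CPM in hull. At 2007 and 2139 together its log2 fold change of shell over hull was -0.56 ± 0.21 (SE, adjusted p = 0.038, edgeR's quasi-likelihood test), which is past the adjusted p but under the fold limit. Its difference moved by 1.51 ± 0.27 on the log2 scale (SE, adjusted p = 9.7e-06, edgeR's quasi-likelihood test).

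Point by point, the median log2((shell + 1) / (hull + 1)) of group means was -0.90 at 865, -0.77 at 993 and -0.54 at 1106, where the mean of 53, 55 and 47 of the 64 genes was lower in shell. It was 0.19 at 1223, -0.47 at 1357, 0.31 at 1508, 0.08 at 1657, -0.24 at 1759, -0.21 at 1881, -0.13 at 2007 and -0.02 at 2139. The median of the 9595 genes stayed between -0.05 and 0.21 at these points. Inside the window the values follow in part from the 2-fold limit of the selection.

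**Figure D5:**
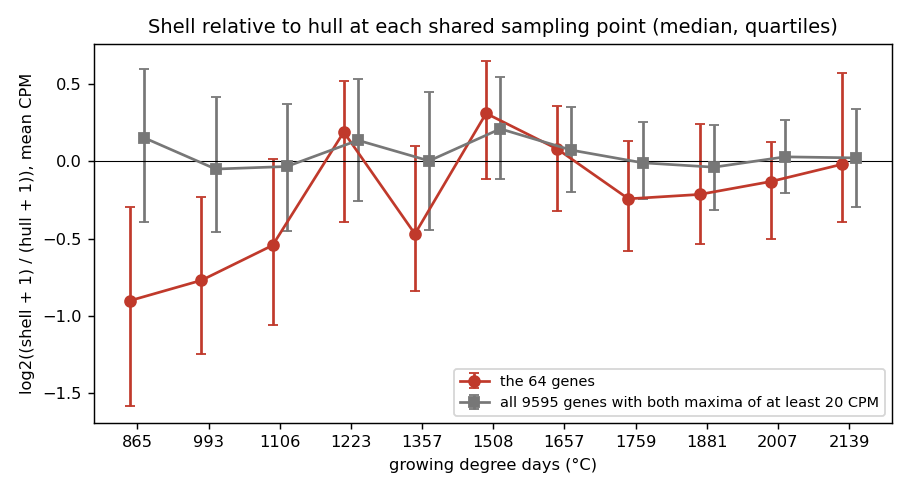
Median and quartiles over genes of log2((shell + 1) / (hull + 1)) of mean CPM at each shared sampling point (growing degree days, °C), for the 64 genes and for the 9595 genes with both maxima of at least 20 CPM. The median of the list is -0.90 at 865, 0.19 at 1223, -0.47 at 1357, 0.31 at 1508 and -0.02 at 2139. The median of the 9595 genes, which include the list, stays between -0.05 and 0.21.

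In kernel the genes were low by selection, but their course was not set. The kernel maximum fell at 2007 in 23 of the 64 genes (35.9%), against 17.9% of the 9595 genes. The summed kernel level had its highest mean there, at 568 ± 96.1 CPM (SD, n = 3), from 459 to 639 CPM. At 1223 the sum was 507 ± 140 CPM, up to 661 CPM, and at 2139 it was 434 ± 199 CPM, up to 664 CPM (n = 3 each). The order of these 3 points in the sum is therefore not beyond the replicates. The correlation of the 3 libraries at 2007 with their best shell group, over other genes, was 0.697 to 0.733, against 0.593 to 0.703 in the 26 other kept kernel libraries. The lowest value of the 26, 0.593, belonged to K24, the library with the lowest sum of the list, 109 CPM. The part of this in the result was not tested. Enough counts for a test were held by 55 genes. Comparing the mean of 2139, 2284 and 2377 with that of 1223, 1357 and 1508, 12 of these were called lower late (21.8%, close to the 21.2% of all genes tested) and 4 higher (7.27%, against 15.1%), with a median log2 fold change of -0.34 against -0.04 for all genes. PvKer.01.g021330 spanned 10.3 to 21.9 CPM with a median of 16.3 in 8 late kernel libraries, against 2.40 to 8.23 CPM with a median of 5.14 in 9 early ones (log2 fold change 1.73 ± 0.25, adjusted p = 9.2e-07, edgeR's quasi-likelihood test). PvKer.01.g033350 spanned 0.201 to 2.11 CPM with a median of 0.482 late, against 3.96 to 35.2 CPM with a median of 13.7 early (log2 fold change -4.01 ± 0.51, adjusted p = 1.1e-07, edgeR's quasi-likelihood test). With all libraries under their labels, 12 of 63 genes (19.05%, against 16.1% of all genes tested) were called higher late and 2 lower (3.17%, against 17.3%), and the median turned to 0.99, against 0.11 for all genes. The added libraries are labelled kernel 2139, 2284 and 2377 and held 9138, 4460 and 917 CPM of the list.

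The 6 kernel libraries labelled 2475 and 2564 took no part in the selection, but those labelled 2564 were nearest in profile to kernel at 1223, a group the selection held to a low level. Their season is uncertain, and their low values are not separate from the selection. The 3 libraries labelled 2475 were shallow, with 500455, 304704 and 530385 PvKer counts, and their best correlations with a kernel group were 0.857, 0.838 and 0.879. The part of this depth in the result was not tested. In kernel the summed CPM was 2502, 1080 and 666 at 2475 and 486, 427 and 382 at 2564, against 10773, 10540 and 9431 CPM in hull at 2475 and 11796, 11917 and 12069 CPM in hull at 2564. Over both points, 63 of the 64 genes were called lower in kernel than in hull (29.8% of all genes tested), and 0 were called higher by edgeR (18.3%), with 0 higher at an unadjusted p under 0.05 and 0 called higher by DESeq2. The median log2 fold change was -4.05, against -0.48 for all genes tested. At 2475 alone 54 of the 64 genes were called lower in kernel than in hull, with a median log2 fold change of -2.71. Of all 19715 genes tested 4808 were, with a median of -0.70. At 2564 alone 64 genes of the list were called lower, with a median of -5.03. Of all 19715 genes tested 6042 were, with a median of -0.07. Other scaling factors (the relative log expression method) moved the medians over both points to -3.82 for the list and -0.26 for all genes. The libraries did not overlap in 55 of the 63 genes called.

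PvKer.14.g352730 had no count in any of these 6 kernel libraries, which together held 29097676 PvKer counts. The 3 counts that a count of 0 allows over the group correspond to 0.103 CPM. In hull the gene had 12.8 ± 2.29 CPM (SD, n = 6), from 9.06 to 16.02 CPM, so kernel was at least 124-fold lower. This bound rests on the libraries labelled 2564. The 3 libraries labelled 2475 held 1335544 PvKer counts, where 3 counts correspond to 2.25 CPM, and hull at 2475 had 14.1 ± 1.67 CPM (SD, n = 3), so kernel at 2475 alone was at least 6.29-fold lower. A further 4 genes had 1 to 3 counts over the 6 kernel libraries. Limits of this kind cover counting error only.

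The identifiers carry a number that places genes on numbered sequences of the authors' assembly. Of the 64 genes, 11 carried the number 12 (17.2%), against 5.03% of the 9595 genes, and 10 each carried the numbers 1 and 3 (15.6% each), against 13.7% and 9.11%. Only 2 pairs were next to each other in identifier order and 4 pairs were within 10 places. Of these, PvKer.12.g282730, PvKer.12.g282740 and PvKer.12.g282770 all had both maxima at 1657 to 1881. Over the 78 hull and shell libraries kept, which share tissue and season, neighbours in this group of 3 genes correlated at r of 0.744 and 0.830. The other 2 pairs, PvKer.01.g033350 with PvKer.01.g033410 and PvKer.12.g286230 with PvKer.12.g286240, correlated at r of 0.370 and 0.438. How reads shared by near-identical genes were counted is not given in the sources used here, so counts of close copies are uncertain.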

How the data were processed

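RNA was sequenced from 121 libraries, which form 38 groups by tissue and sampling point. Per the labels' protocols, a TruSeq RNA kit was used and reads were pairs of 150 bases. Per the submitters' processing notes, Trimmomatic 0.39 and Bowtie2 2.3.4.1 were used. For the counting tool, strand, build and annotation, nothing is given in the sources used here. The authors deposited raw counts of reads, 1 row per gene and 1 column per library.

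From these counts, CPM was computed over PvKer rows. Comparisons used edgeR 4.0.16 in R 4.3.3 (TMM factors, filterByExpr by group, glmQLFit, glmQLFTest) on PvKer rows and the 107 libraries kept, with Benjamini-Hochberg adjustment over all genes tested. The comparison of kernel with hull at 2475 and 2564 added 6 kernel libraries. The standard error of a log2 fold change is its size over the square root of F. Alternatives were DESeq2 1.42.0, RLE factors, no count filter, all rows, all libraries, 1 fit for all tissues, adjusted p alone, and leaving out replicates, numbered in accession order. The genes named are the highest hull maximum of each class and, per comparison, the largest rises and falls (at most 2 each) with no overlap of libraries and 10 CPM or more on the higher side, not all of them printed. The members and lists were chosen with earlier results of these data known. On simulated counts with 200 genes changed 4-fold, the test recovered 99.5% in hull at 2564 against 2139 (17689 genes) and 100% in each of the 9 other comparisons, and made at most 10 other calls. The changed genes were drawn only from genes above a minimum mean count, and every gene was given the same spread. Recovery at low counts, such as those of the list in kernel, was therefore not measured. Of 109 replicate pairs, none agreed within sampling noise (lowest chi-square per degree of freedom 5.04).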

Additional observations from a re-analysis of the deposited data

Results flagged for a closer look

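In the group labelled kernel 1881, 1 of 4 libraries, K24, held 109 CPM of the 64 genes and stood apart from the others. Such a library also stood apart in the groups labelled kernel 2139 (K32, 9138 CPM) and kernel 2284 (K38.2, 4460 CPM), both left out of the selection. Chance gives such a library in about 1 in 20 groups, and 8 groups of 4 libraries were examined. K24 held 11663785 PvKer counts. Over the other genes it correlated best with the kernel group labelled 1759, at r of 0.966. The 2 kept libraries of that group held 281 and 178 CPM of the list. The part of this in the level of K24 was not tested.

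The log2 difference of shell from hull differed between 2007 to 2139 and 865 to 1106, higher late in 30 genes (46.9%, against 12.4% of all genes tested) and lower late in 1 (10.6% of all genes tested; edgeR's quasi-likelihood test of the interaction).

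Of the libraries left out of the selection, 7 labelled kernel exceeded the highest kept kernel library, at 664 CPM of the list. K23, labelled 1759, held 10435 CPM, K32, labelled 2139, held 9138 CPM and K38.2, labelled 2284, held 4460 CPM. K45, K47 and K48, labelled 2475, held 2502, 1080 and 666 CPM, and K44, labelled 2377, held 917 CPM. Over the other genes, K23 and K32 correlated best with the shell group labelled 1759, at r of 0.935 and 0.93, and K38.2 correlated with its best kernel group at 0.798 and its best shell group at 0.766. The cause of these levels was not tested.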

How the results depend on the processing

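The number of genes that met the selection was 16 with all libraries under their labels, 37 with TMM-scaled CPM (33 of them among the 64), 149 and 34 with a kernel ratio of 5 and 20, and 56 to 69 when replicates were left out in turn (44 to 52 of them among the 64). Calls on the adjusted p alone were 21 higher and 3 lower for hull at 1106 against 865 (16.1% and 13.5% of all genes tested), 1 lower for shell at 1106 (5.51%), 4 higher for hull and 6 higher for shell at 2139 against 2007 (11.5% and 12.5%), and 27 higher for hull at 2564 (21.6%). They were 4 higher for shell against hull early (27%), 8 higher and 13 lower late (14% and 12.3%), and 3 lower for the change of that difference (18.9%). Late, 12.5% and 20.3% of the list passed. For shell at 2139, 1 gene in place of 2 was called higher with all tissues in 1 fit, RLE factors, no count filter, DESeq2, all rows or all libraries. For kernel late against early, all libraries gave 12 higher and 2 lower. Leaving out replicates in turn gave 0 to 2 lower for hull at 1106, 9 to 29 higher and 0 to 1 lower for shell at 1106, 0 to 1 higher and 6 to 16 lower for hull at 2139, and 0 to 8 higher and 3 to 12 lower for shell at 2139. It gave 0 to 1 higher for shell against hull early, 1 to 2 higher and 3 to 7 lower late, 1 to 3 lower for the change of the difference, and 2 to 5 higher and 7 to 14 lower for kernel. The other counts stayed within 1.5 times. The counts with replicates left out are set against the main counts of the list only, and nothing about the list is read from them. Of 259 alternative values of named genes, 245 kept their call, 14 lost it and 0 reversed.

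Whether title numbers pair hull and shell libraries was not settled. Over 26 same-numbered pairs, deviations from group means correlated at a median r of 0.015, from -0.345 to 0.341. Of these pairs 8 were over 0.1, and pairs of other numbers had a median r of -0.016. The own number correlated best for 11 of 26 hull libraries. Groups this small cannot exclude pairing. With the title number as a replicate block, 35 genes were lower in shell early, 2 higher and 4 lower late. The difference rose in 32 and fell in 1. Of the 20449 genes tested in that fit, 3102 were lower in shell early, 913 higher and 699 lower late. Among them the difference rose in 2315 and fell in 2258. Counts on PvKer genes were as few as 304704 in a kernel library labelled 2475 and 850623 in a kept kernel library.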
